A study of Homo sapiens with 6 samples.

Results

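The transforming growth factor beta (TGF-beta) ligands, their receptors, the latent TGF-beta binding proteins and the matrix protein TGFBI were examined in a knockdown of CHRM3 in U87-MG, an established human glioblastoma line. The 10 genes were taken by name: TGFB1, TGFB2, TGFB3, TGFBR1, TGFBR2, TGFBR3, LTBP1, LTBP2, LTBP3 and TGFBI, out of 61731 genes and loci in the deposited table. RNA was sequenced from 3 control libraries (NC) and 3 libraries labelled CHRM Knockdown (KD). The labels call NC Normal control, while the paper writes negative control. KD cells carried a lentiviral knockdown construct against CHRM3, the M3 muscarinic acetylcholine receptor, and which of the KD sequences was used in these libraries is not stated. The paper does not state whether NC cells carried a lentiviral construct. Nothing says that libraries with the same label were grown as separate cultures, so p-values measure the spread between these libraries, which may be technical.

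TGF-beta is made as a precursor whose mature dimer stays bound to its own propeptide, and this latent complex is linked to a latent TGF-beta binding protein (LTBP) that anchors it in the matrix. Integrins, proteases or thrombospondin release the active ligand. It then binds the type II receptor TGFBR2, which phosphorylates the type I receptor TGFBR1, and TGFBR1 in turn phosphorylates SMAD2 and SMAD3, which enter the nucleus with SMAD4. TGF-beta is known in glioblastoma for its part in invasion, in a mesenchymal state and in immune suppression.

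Levels are given as TPM, each transcript's share of its library scaled to 1000000, a measure that takes transcript length into account, so that levels of different genes can be compared. CHRM3 itself was at 0.02, 0.09 and 0.13 TPM in NC 1, 2 and 3 and at 0.13, 0.01 and 0.02 TPM in KD 1, 2 and 3. These values overlap and lie near the rounding step of the table, so the knockdown cannot be checked in these libraries and every direction is that of the labels. The number of reads behind each value is unknown, since TPM does not carry it. Of 9 glial and glioma markers, only VIM, CD44, NES and GFAP reached a mean of 1 TPM, with GFAP at 1.16 ± 0.219 TPM in NC and 1.13 ± 0.300 TPM in KD (SD, n = 3 each), and AQP4 was listed at 0 in all 6 libraries. Of 7 leukocyte markers, CD68 and CSF1R reached 1 TPM, PTPRC was at most 0.12 TPM in any library, and TYROBP and CD3E were listed at 0. The summed leukocyte list was 255.0 to 259.0 TPM in NC and 180.0 to 186.0 TPM in KD, nearly all of it CD68. All 4 endothelial markers stayed under 1 TPM, of the epithelial markers EPCAM alone reached it, and of the fibroblast and pericyte markers PDGFRB, RGS5 and LUM did. The summed glial list was 7110 to 7290 TPM in NC and 7730 to 7920 TPM in KD, nearly all of it VIM, which rose from 6574 to 7376 TPM, and CD44, which fell from 597.3 to 473.5 TPM. The summed fibroblast and pericyte list was 40.6 to 41.1 TPM and 37.2 to 38.8 TPM. The means of the leukocyte markers moved in opposite directions, CD68 from 251.0 to 172.7 TPM and CSF1R from 5.44 to 9.17 TPM. The mean of LUM fell from 30.4 to 22.0 TPM, while that of PDGFRB rose from 5.44 to 10.1 TPM, and the part of such shifts in the values below was not tested. In bulk RNA, fewer cells of a kind and less RNA per cell cannot be told apart.

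All 10 genes had a mean of at least 1 TPM and entered the limma fit of log2(TPM + 1) over 13722 genes. A gene was said to rise or fall at a Benjamini-Hochberg adjusted p under 0.05. By this rule 5 of the 10 rose in KD (TGFB1, TGFB3, TGFBR2, LTBP1 and TGFBI), 2 fell (TGFBR1 and LTBP3), and 3 did not pass (TGFB2, TGFBR3 and LTBP2). Over all genes tested, 36.1% passed, 12.1% higher and 24.0% lower in KD. A count of 7 in 10 is therefore to be read against a background in which more than 1 gene in 3 passed. The 10 genes were also chosen with earlier results of these data known. After median-of-ratios scaling the calls over all genes were 2306 higher and 2250 lower, against 1660 higher and 3295 lower with TPM as deposited, while the same 7 of the 10 genes passed in the same directions. The groups of libraries did not overlap for 7 of the 10 genes, as for 50.2% of all genes tested. No member reached an absolute log2 fold change of 1. Of all genes tested, 1.87% had at least that size together with an adjusted p under 0.05. The median log2 fold change was 0.12 over the 10 genes and -0.06 over all genes tested.

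**Figure D1:**
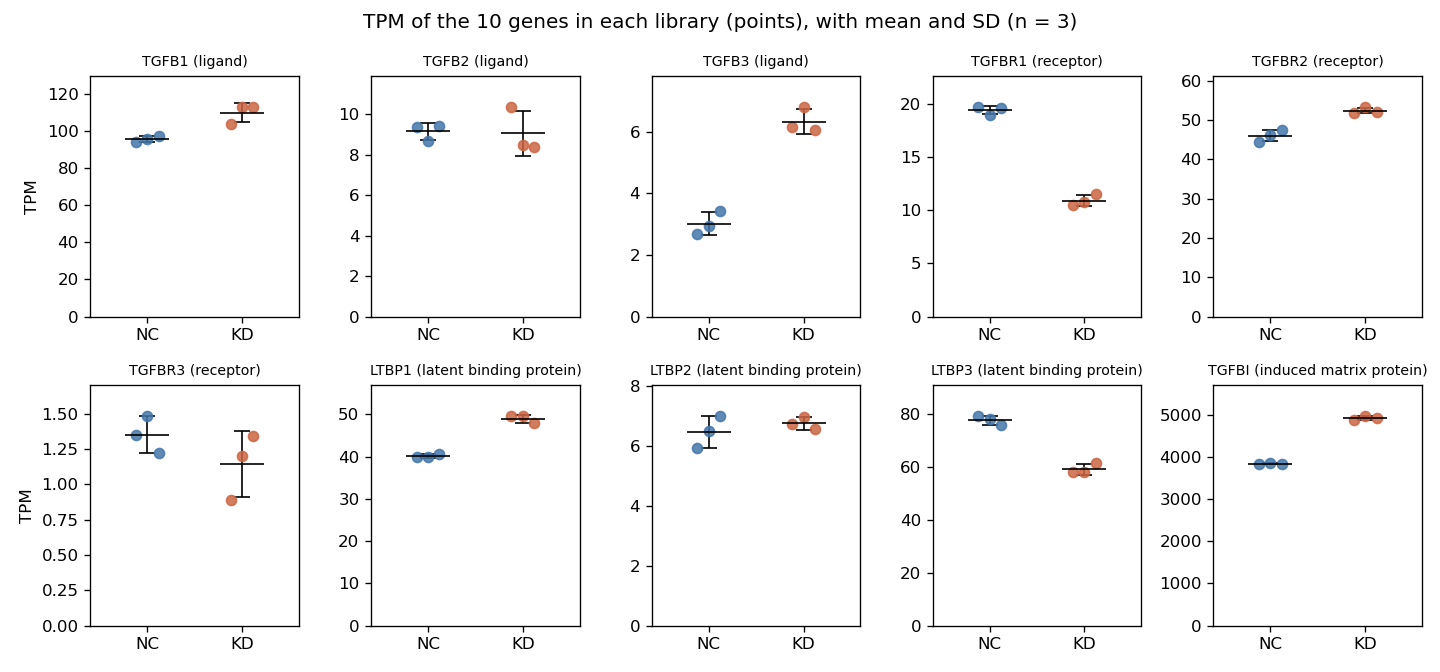
TPM of each of the 10 genes (vertical axes, each starting at 0) in the 3 NC and the 3 KD libraries, with points for libraries, a horizontal bar for the mean and whiskers for the SD (n = 3). TGFBR1 and LTBP3 lie lower in all KD libraries, TGFB1, TGFB3, TGFBR2, LTBP1 and TGFBI lie higher, and TGFB2, TGFBR3 and LTBP2 overlap.

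Of the 3 ligands, TGFB3 rose the most, TGFB1 rose slightly and TGFB2 did not pass the test. TGFB1, the prototype ligand and the most abundant of the 3 in these cells, was at 94.07, 95.81 and 97.20 TPM in NC 1, 2 and 3 and at 103.89, 112.59 and 112.64 TPM in KD 1, 2 and 3. All KD libraries lay above all NC libraries, and KD 1 was the lowest of the KD group. The difference on the log2 scale, KD minus NC, came to 0.19 (SE, the standard error, 0.0379, 95% confidence interval 0.10 to 0.29, limma adjusted p = 0.00882). A larger absolute log2 fold change was found for 45.4% of the genes tested. The TGFB1 span (ENSG00000105329, GRCh38 chromosome 19 from 41301587 to 41353911, minus strand) shares 215 exon bases with HNRNPUL1 on the opposite strand. HNRNPUL1 was at 174.06 to 179.97 TPM in NC and at 132.87 to 144.98 TPM in KD. The strand used in counting is not stated, and the part of this overlap in the TGFB1 values was not tested.

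TGFB3 (ENSG00000119699, chromosome 14 from 75958099 to 75982991, minus strand), a ligand known for its role in palate closure, was far less abundant. It was at 2.68, 2.93 and 3.41 TPM in NC 1, 2 and 3 and at 6.15, 6.79 and 6.04 TPM in KD 1, 2 and 3. The lowest KD value was well above the highest NC value. On the log2 scale KD differed from NC by 0.87 (SE 0.0941, 95% confidence interval 0.65 to 1.10, limma adjusted p = 0.000793). On the scale of TPM the mean rose 2.1-fold, since the pseudocount of 1 shrinks the change of a gene at this level. Only 4.01% of the tested genes had a larger absolute log2 fold change. On the opposite strand the TGFB3 span overlaps IFT43, with 0 exon bases shared. IFT43 was at 62.68 to 68.20 TPM in NC and 75.96 to 78.68 TPM in KD. TGFB3-AS1, also on the opposite strand, shares 163 exon bases and was listed at 0 in every library. The strand used in counting is not stated, and the part of these overlaps in the TGFB3 values was not tested.

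TGFB2 (ENSG00000092969, chromosome 1 from 218346235 to 218444619, plus strand), the isoform first described as a suppressor of T cells from glioblastoma, did not differ beyond its spread. Its level was 9.40, 8.69 and 9.41 TPM in NC 1, 2 and 3 and 10.35, 8.5 and 8.37 TPM in KD 1, 2 and 3. KD 1 was above every NC library while KD 2 and KD 3 were below every one. The log2 fold change was -0.02, with a 95% confidence interval from -0.23 to 0.19 (limma adjusted p = 0.896), so changes of up to about that size in either direction remain possible. The non-coding TGFB2-OT1 shares 1371 exon bases with TGFB2 on the same strand and was listed at 0.75 to 2.77 TPM, so that reads could have been split between them.

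Added together, the 3 ligands were at 106.2, 107.4 and 110.0 TPM in NC 1, 2 and 3 and at 120.4, 127.9 and 127.1 TPM in KD 1, 2 and 3. The sum was higher in all 3 KD libraries, by 17.2 TPM on average (exact two-sided permutation test, p = 0.10, the smallest that 3 libraries against 3 allow). TGFB1 made up most of this pool in both groups, with a share of 88.7% ± 0.426 in NC and 87.7% ± 1.23 in KD (SD, n = 3 each, exact permutation p = 0.30). The share of TGFB3 rose from 2.53%, 2.73% and 3.10% in NC 1, 2 and 3 to 5.11%, 5.31% and 4.75% in KD 1, 2 and 3, with no overlap (exact permutation p = 0.10). A share within a library does not depend on how libraries are scaled. TGFB1 transcripts were 32.1 ± 3.34 times as abundant as those of TGFB3 in NC and 17.4 ± 1.11 times in KD (SD, n = 3 each).

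The promoters of the 3 ligands are shown because the ligands, which act through the same receptors, differed in outcome: TGFB1 and TGFB3 rose by different amounts and TGFB2 did not pass the test. They are set side by side for their sequence alone. They run from 250 bases before to 50 after the RefSeq start, on GRCh38.p14 and on the strand of the gene, at chr19:41353873-41354172 (minus), chr1:218345086-218345385 (plus, 899 bases from the GENCODE gene start) and chr14:75982962-75983261 (minus, of 2 listed starts the one nearest to the GENCODE gene start). Capitals mark the GC box GGGCGG, the TATA box TATAAA, the AP-1 site TGANTCA and the CRE core TGACG, searched on both strands.
TGFB1: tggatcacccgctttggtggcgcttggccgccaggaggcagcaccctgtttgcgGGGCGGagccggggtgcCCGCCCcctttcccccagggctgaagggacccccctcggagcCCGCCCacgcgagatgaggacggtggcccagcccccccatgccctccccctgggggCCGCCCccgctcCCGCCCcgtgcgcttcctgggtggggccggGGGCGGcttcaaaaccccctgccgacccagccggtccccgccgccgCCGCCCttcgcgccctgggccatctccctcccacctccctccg
TGFB2: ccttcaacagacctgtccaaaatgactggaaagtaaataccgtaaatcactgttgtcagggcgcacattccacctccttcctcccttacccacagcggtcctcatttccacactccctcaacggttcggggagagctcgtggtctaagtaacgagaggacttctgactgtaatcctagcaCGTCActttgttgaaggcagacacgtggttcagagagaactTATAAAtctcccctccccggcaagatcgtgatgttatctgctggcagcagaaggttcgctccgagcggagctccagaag
TGFB3: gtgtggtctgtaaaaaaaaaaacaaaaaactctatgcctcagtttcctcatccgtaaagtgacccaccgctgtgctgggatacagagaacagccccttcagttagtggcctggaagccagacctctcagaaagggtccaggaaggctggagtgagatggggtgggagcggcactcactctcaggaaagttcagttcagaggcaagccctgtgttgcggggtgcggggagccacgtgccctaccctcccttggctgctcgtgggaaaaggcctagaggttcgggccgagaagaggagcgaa

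The TGFB1 window held 7 GC boxes and no TATA box, and 77.3% of its bases were G or C, against a median of 58.7% over the 35116 promoters in the table. The TGFB2 window held 1 TATA box, 29 bases before the start, and 1 CRE core, 70 bases before it, at 51.7% G or C. None of these motifs was found in the TGFB3 window (56.0% G or C), which says only that these letters are absent from these 300 bases. Over all promoters the GC box was found in 45.0%, the TATA box in 11.5%, the AP-1 site in 7.71% and the CRE core in 24.6%. Of the other members, LTBP1 held the full palindrome TGACGTCA, found in 1.85% of promoters and where its 2 CRE core matches overlap, and TGFBR2 held 1 AP-1 site. TGFBI held 4 GC boxes, LTBP2 3, TGFBR2 and TGFBR3 2 each and LTBP3 1, while the TGFBR1 window had none of these motifs. Also searched were the SMAD palindrome GTCTAGAC, found in no member and in 0.202% of promoters, and CAGACA, found in 16.9% of promoters and once each in TGFB2 and TGFBR1. The window used lay 571 bases from the GENCODE start for LTBP3 and 20184 for TGFBR3. TGFBR1 had 8 listed starts, LTBP1 3, and TGFBR2, TGFB3 and LTBP3 2 each. For these genes only the window nearest to the GENCODE start was described, so the counts do not cover their other starts. TPM values are per gene, so which start these cells use is not known from them, and a match is a description and not a site of binding.

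At the receptors the components of the signalling complex went in opposite directions. TGFBR1 (ENSG00000106799, chromosome 9 from 99104038 to 99154192, plus strand), the type I receptor kinase ALK5 that phosphorylates SMAD2 and SMAD3, was at 19.68, 18.95 and 19.64 TPM in NC 1, 2 and 3. In KD 1, 2 and 3 it was at 10.48, 10.75 and 11.49 TPM. Every KD library was far below every NC library, with little spread inside either group. The difference on the log2 scale, KD minus NC, came to -0.78 (SE 0.0490, 95% confidence interval -0.90 to -0.66, limma adjusted p = 9.52e-05), and the KD mean was 0.562 times the NC mean. This was the largest fall of the 10 genes, exceeded in absolute size by 5.01% of the genes tested.

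TGFBR2 (ENSG00000163513, chromosome 3 from 30606502 to 30694142, plus strand), the type II receptor that binds the ligand first, rose slightly. Its level was 44.48, 46.11 and 47.33 TPM in NC 1, 2 and 3 and 51.85, 53.19 and 52.10 TPM in KD 1, 2 and 3, without overlap. On the log2 scale KD differed from NC by 0.19 (SE 0.0332, limma adjusted p = 0.00631). In absolute size this change was exceeded by 47.9% of the genes tested. The ratio of TGFBR2 to TGFBR1 transcripts was 2.26, 2.43 and 2.41 in NC 1, 2 and 3 and 4.95, 4.95 and 4.53 in KD 1, 2 and 3. Type II transcripts thus outnumbered type I transcripts in every library, and the excess was larger in all 3 KD libraries (exact two-sided permutation test of the log2 ratio, p = 0.10, the smallest possible). The separation of this ratio follows from the rise of TGFBR2 and the fall of TGFBR1, so its p-value adds nothing to them.

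TGFBR3 (ENSG00000069702, chromosome 1 from 91680343 to 91906335, minus strand) encodes betaglycan, a co-receptor without a kinase that presents ligand, TGF-beta 2 in particular, to the signalling receptors. It was scarce, at 1.35, 1.48 and 1.22 TPM in NC 1, 2 and 3 and at 0.89, 1.20 and 1.34 TPM in KD 1, 2 and 3. The groups overlapped, and KD 1 was the lowest library. The log2 fold change was -0.14, with a 95% confidence interval from -0.47 to 0.20 (limma adjusted p = 0.486).

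Of the 3 listed latent binding proteins, LTBP3 fell, LTBP1 rose and LTBP2 did not pass the test. LTBP4, which is in the list of activators and anchors and not among the 10 genes, fell as well. LTBP3 (ENSG00000168056, chromosome 11 from 65538805 to 65558930, minus strand), which links covalently to the latent complex of all 3 ligands, was at 79.08, 77.93 and 75.66 TPM in NC 1, 2 and 3 and at 57.87, 57.88 and 61.34 TPM in KD 1, 2 and 3. The gap between the groups was larger than the range inside either. The difference on the log2 scale, KD minus NC, came to -0.39 (SE 0.0346, limma adjusted p = 0.000373). LTBP1 (ENSG00000049323, chromosome 2 from 32946972 to 33399509, plus strand), which also binds the latent complex and docks on fibrillin and fibronectin, was at 39.78, 39.90 and 40.54 TPM in NC 1, 2 and 3. It was at 49.50, 49.49 and 47.90 TPM in KD 1, 2 and 3. All KD values lay above all NC values, and the difference on the log2 scale was 0.28 (SE 0.0292, limma adjusted p = 0.000678). Of the genes tested, 18.1% had a larger absolute change than LTBP3 and 29.5% a larger one than LTBP1.

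LTBP2 (ENSG00000119681, chromosome 14 from 74498170 to 74612378, minus strand), a microfibril protein of the family that is not known to bind latent TGF-beta, was at 5.92, 6.49 and 6.99 TPM in NC 1, 2 and 3. It was at 6.73, 6.98 and 6.56 TPM in KD 1, 2 and 3, inside the upper part of the NC range. The log2 fold change was 0.06, with a 95% confidence interval from -0.12 to 0.23 (limma adjusted p = 0.581).

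LTBP4 (ENSG00000090006), the other gene of the family, was at 20.68, 22.95 and 20.22 TPM in NC 1, 2 and 3 and at 16.40, 15.52 and 13.39 TPM in KD 1, 2 and 3. It is named here after its values were seen. The KD libraries lay below the NC libraries, with a difference of -0.47 on the log2 scale (adjusted p = 0.00634 by limma, 0.00395 to 0.0231 over the alternatives).

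The make-up of the 3 listed LTBP transcripts changed, with LTBP4 left out of the sum. LTBP1 took 31.9%, 32.1% and 32.9% of the summed LTBP1, LTBP2 and LTBP3 TPM in NC 1, 2 and 3 and 43.4%, 43.3% and 41.4% in KD 1, 2 and 3. LTBP3 went from 62.5% ± 0.993 to 51.4% ± 1.33 of the sum (SD, n = 3 each). Neither share overlapped between the groups (exact permutation p = 0.10 for each). This separation follows from the rise of LTBP1 and the fall of LTBP3 given above. These shares nearly mirror each other, since LTBP2 made up only 5.21% of the sum in NC and 5.89% in KD. LTBP3 remained the most abundant of the 3 in every library. The sum itself was 124.1 ± 0.818 TPM in NC and 114.8 ± 0.918 TPM in KD (SD, n = 3 each, exact permutation p = 0.10). The difference of -9.35 TPM, KD minus NC, became -3.54 TPM after median-of-ratios scaling and -15.5 TPM with LTBP4 added to the sum. With LTBP4 in the sum, the share of LTBP1 was 27.6% ± 0.618 in NC and 37.7% ± 0.551 in KD, and that of LTBP3 was 53.4% ± 0.886 and 45.5% ± 1.75 (SD, n = 3 each), again without overlap.

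**Figure D2:**
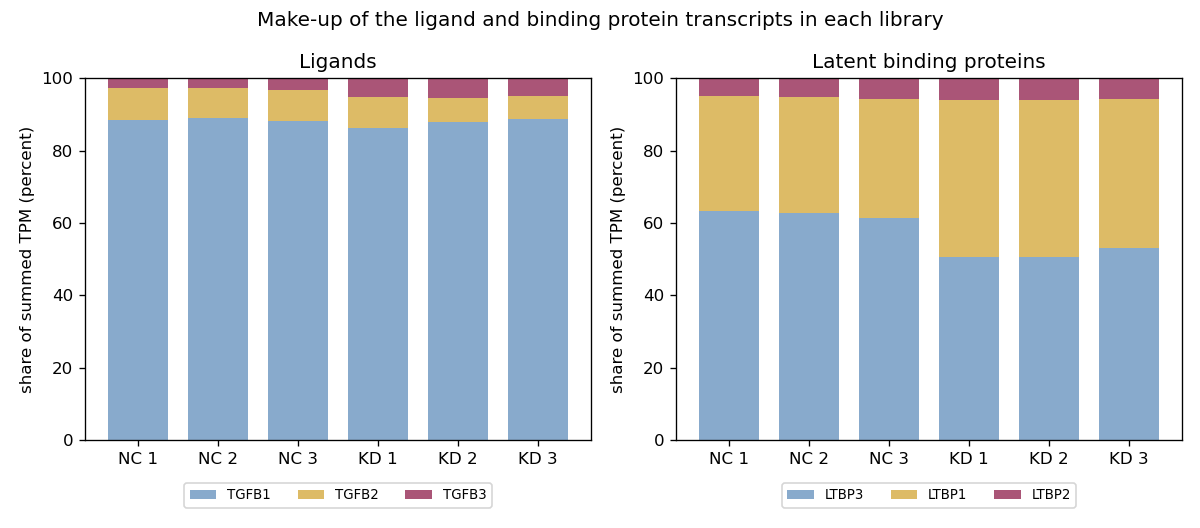
Share of each ligand in the summed TPM of TGFB1, TGFB2 and TGFB3 (left) and of each binding protein in the summed TPM of LTBP1, LTBP2 and LTBP3 (right), in percent, with 1 bar per library. TGFB1 fills most of the ligand bar in all 6 libraries while the TGFB3 segment is larger in KD, and the LTBP1 segment grows from 32.3% on average in NC to 42.7% in KD.

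TGFBI (ENSG00000120708, chromosome 5 from 136028895 to 136063818, plus strand) encodes a secreted matrix protein that was found as a gene induced by TGF-beta and that binds collagens and integrins. It was the most abundant of the 10 genes by far and ranked 24 among all genes of the table by mean TPM. Its level was 3838.49, 3855.89 and 3839.80 TPM in NC 1, 2 and 3 and 4888.40, 4971.43 and 4927.03 TPM in KD 1, 2 and 3. The spread inside each group was small against the gap between them. On the log2 scale KD differed from NC by 0.36 (SE 0.0106, 95% confidence interval 0.33 to 0.38, limma adjusted p = 5.61e-06), and the mean was 1.28 times as high in KD. Of the genes tested, 20.7% had a larger absolute change. TGFBI transcripts were 40.2 ± 0.652 times as abundant as those of TGFB1 in NC and 45.0 ± 1.80 times in KD (SD, n = 3 each), a ratio that was higher in all 3 KD libraries (exact permutation p = 0.10).

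In order of level in NC the genes ran TGFBI, TGFB1, LTBP3, TGFBR2, LTBP1, TGFBR1, TGFB2, LTBP2, TGFB3 and TGFBR3. The means in KD had the same order. No neighbours in the NC order overlapped in their libraries. In KD, LTBP2 and TGFB3 became close, at 6.56 to 6.98 TPM and 6.04 to 6.79 TPM, and their ranges overlapped. TGFBR1 and TGFB2 also came near each other, at 10.48 to 11.49 TPM and 8.37 to 10.35 TPM.

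**Figure D3:**
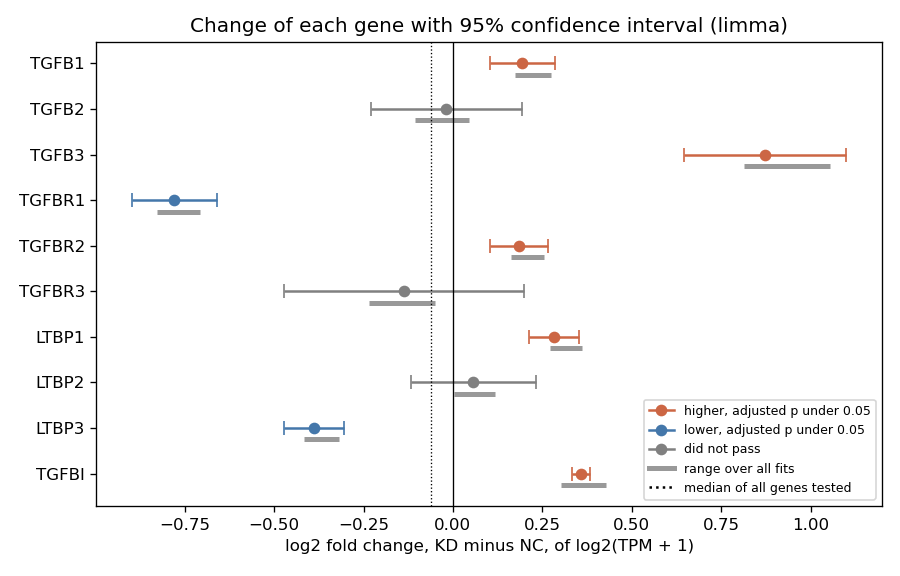
Log2 fold change of each gene, KD minus NC, on the scale of log2(TPM + 1) (horizontal axis), with its 95% confidence interval from limma and, as a grey bar beneath, the range over the chosen and the 16 alternative settings. The confidence intervals of TGFB2, TGFBR3 and LTBP2 cross 0 and the other 7 do not. Of the grey bars that of TGFB2 alone crosses 0, while those of TGFBR3 (-0.24 to -0.05) and LTBP2 (0.004 to 0.12) do not, though neither gene passed in any setting.

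Other genes of the pathway were read from lists by role, and genes can stand in more than one list. The lists were chosen with earlier results of these data known, so the shares that passed are descriptions only. Among 22 genes that activate, anchor or trap the latent complex, 17 were tested, 4 rose, 7 fell and 6 did not pass (median log2 fold change 0.01). The share that passed was 64.7%, against 36.1% of all genes tested. The rises were 7 after median-of-ratios scaling and 6 after quantile normalization, with 7 falls in each. The largest fall was that of DCN, which encodes decorin, a proteoglycan that binds TGF-beta. DCN was at 60.78, 59.54 and 63.19 TPM in NC 1, 2 and 3 and at 7.19, 9.46 and 10.63 TPM in KD 1, 2 and 3, a difference of -2.64 on the log2 scale (adjusted p = 3.05e-05 by limma). THBS1, encoding thrombospondin 1, an activator of the latent complex, was at 1.0, 0.99 and 1.0 TPM in NC and at 5.47, 4.69 and 4.60 TPM in KD, a difference of 1.57 on the log2 scale (adjusted p = 9.73e-05 by limma). These changes in DCN and THBS1 were larger than that of any of the 10 genes.

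NRROS, which tethers latent TGF-beta 1 to the surface of microglia and macrophages, fell from 2.47 ± 0.148 to 1.04 ± 0.265 TPM (log2 fold change -0.78). FN1, encoding fibronectin, fell from 987.4 ± 12.4 to 663.5 ± 11.7 TPM (-0.57). FBN1, encoding the fibrillin on which LTBPs dock, rose from 62.0 ± 4.51 to 93.4 ± 7.68 TPM (0.58), and PLAU, encoding urokinase, rose from 286.3 ± 5.05 to 355.1 ± 5.56 TPM (0.31; SD, n = 3 for every mean). These 4 genes were named because they passed with no overlap between the groups, so their separation follows from that choice. Of the 5 receptor partners, 4 were tested, none rose and only CD109, a co-receptor that limits TGF-beta signalling, fell, from 17.0 ± 0.249 to 13.4 ± 0.157 TPM (log2 fold change -0.32, limma adjusted p = 0.00130). Thus 1 of the 4 tested receptor partners passed, a share below the 36.1% of all genes tested. With NC 3 left out, 3 of these receptor partners passed, 2 of them higher.

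Among the signal transducers the calls were close to the threshold. Here 2 of the 4 tested genes passed, a share above the 36.1% of all genes tested. Of 4 genes tested, SMAD3 and ZFYVE9, the latter encoding the anchor that brings SMAD2 and SMAD3 to the receptor, were lower with limma adjusted p of 0.0452 and 0.0463 and log2 fold changes of -0.26 and -0.31. Both calls were lost in 11 of the 16 alternatives, with adjusted p between 0.0327 and 0.120 for SMAD3 and between 0.0361 and 0.133 for ZFYVE9. The number of genes of this list that passed was 0 without NC 1, without NC 3, without KD 1 and without KD 3. SMAD2 was at 26.05 ± 2.22 TPM in NC and 28.8 ± 1.17 TPM in KD, and SMAD4 at 14.6 ± 0.824 and 12.8 ± 1.25 TPM (SD, n = 3 each), neither past the threshold (limma adjusted p = 0.145 and 0.113).

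Of 11 inhibitors of the pathway, 10 were tested, 4 fell, none rose and 6 did not pass (median log2 fold change -0.21). The share that passed, 40.0%, was near the 36.1% of all genes tested, among which falls were also more common than rises with TPM as deposited. Over all genes the calls were 2306 higher and 2250 lower with median-of-ratios scaling, and 2233 and 2229 with quantile normalization. In both settings 4 inhibitors fell and none rose. SMAD7, the inhibitory SMAD that TGF-beta itself induces, was at 15.93, 16.28 and 15.89 TPM in NC 1, 2 and 3 and at 13.27, 12.77 and 13.01 TPM in KD 1, 2 and 3. These groups stood clear of each other, and differed by -0.28 on the log2 scale (adjusted p = 0.00252 by limma). The co-repressors SKI and SKIL fell by 0.29 and 0.39 on the log2 scale, and TGIF1 fell as well, from 85.5 ± 3.22 to 71.6 ± 3.67 TPM (SD, n = 3 each). The call of SKIL was lost in 6 of the 16 alternatives, with adjusted p up to 0.0705. These were the settings with no limit on low values and those without NC 1, NC 2, NC 3, KD 2 or KD 3.

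Genes that TGF-beta is known to induce went both ways. Of 26 such genes, 20 were tested, 10 rose, 8 fell and 2 did not pass, with a median log2 fold change of 0.05. The share that passed was 90.0%, against 36.1% of all genes tested, of which 12.1% were higher and 24.0% lower. The list was chosen with earlier results of these data known, so its share is not independent of them. The share over all genes also depends on level: with a limit of 5 TPM, 4492 of 9806 genes passed. The largest rises after THBS1 were those of ACTA2 and TAGLN, which encode smooth muscle actin and transgelin. ACTA2 was at 55.73, 56.89 and 60.30 TPM in NC 1, 2 and 3 and at 153.20, 161.25 and 160.25 TPM in KD 1, 2 and 3 (log2 fold change 1.44, limma adjusted p = 3.8e-06), and TAGLN rose from 1.36 ± 0.311 to 4.36 ± 0.764 TPM (1.18; SD, n = 3 each). The largest falls were those of CCN2, FN1 and CDKN1A. CCN2, encoding connective tissue growth factor, was at 42.06, 42.11 and 42.50 TPM in NC 1, 2 and 3 and at 24.16, 24.08 and 23.23 TPM in KD 1, 2 and 3 (log2 fold change -0.80, limma adjusted p = 1.76e-05). CDKN1A, encoding the cell cycle inhibitor p21, fell from 321.4 ± 4.56 to 216.8 ± 3.91 TPM (SD, n = 3 each). TGFBI, with its rise, thus went the way of ACTA2 and TAGLN and opposite to CCN2 and CDKN1A.

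Of the 7 genes of the activin branch, which shares SMAD2 and SMAD3 with TGF-beta, 4 were tested. Of these 4 genes 1 passed, a share below the 36.1% of all genes tested. Only ACVR1B, the activin type I receptor ALK4, was lower, from 6.78 ± 0.627 to 5.46 ± 0.283 TPM (SD, n = 3 each, log2 fold change -0.27, limma adjusted p = 0.0426). That call was lost in 12 of the 16 alternatives, among them all 6 that left out a library, and the adjusted p ranged from 0.0356 to 0.113.

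**Figure D4:**
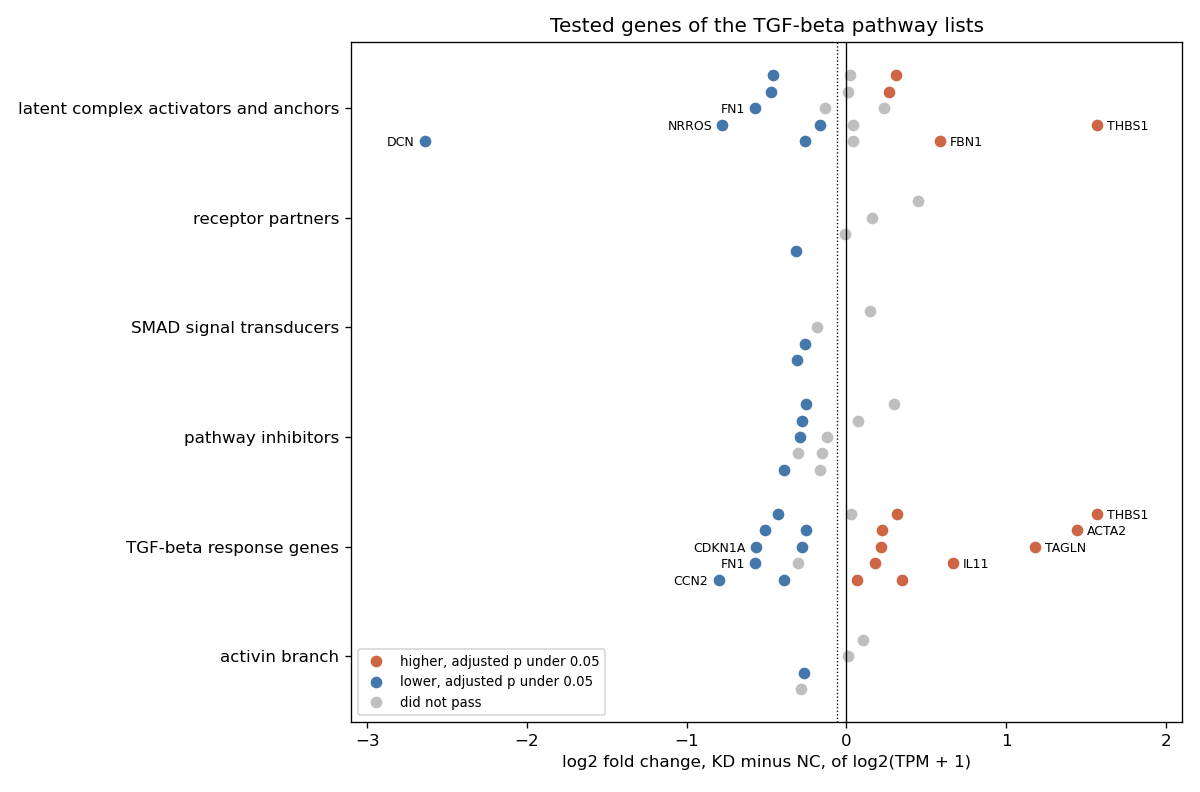
Log2 fold change, KD minus NC, on the scale of log2(TPM + 1) (horizontal axis) of each tested gene in 6 lists of the pathway (rows), coloured by whether it rose, fell or did not pass, with the median of all genes tested as a dotted line. The genes of the response list lie on both sides of 0, with THBS1 and ACTA2 farthest to the right, and DCN lies farthest to the left of all.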

How the data were processed

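RNA of U87-MG cells was sequenced in 3 NC and 3 KD libraries. The authors deposited 1 table of TPM values for 61731 genes and loci, rounded to 2 decimals, and each library sums to about 1000000 TPM. The submitters' processing notes name fastp, RSEM and the build GRCh38.p13. The aligner and the annotation are not given in the sources used here, and the labels and the paper name different extraction and library kits. The depth is unknown, and no count test was used.

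Columns were matched to samples by their labels, and symbols to Ensembl identifiers by a table of gene names. Coordinates and exon overlaps come from GENCODE 29 on GRCh38. The limma package (3.58.1, R 4.3.3; lmFit, then eBayes with a trend) was applied to log2(TPM + 1) of genes averaging 1 TPM or more, with Benjamini-Hochberg adjustment over all 13722 genes, a procedure also tested on simulated data, where changed genes of low TPM were found less often. The recovery required of that test was loosened after its first run, with the fit unchanged. Sums, shares and ratios within a library were compared by exact two-sided permutation tests, unadjusted over 12 such comparisons and 5 with LTBP4 in the sum, whose smallest p is 0.10. The ratios of LTBP1 to LTBP3 and TGFB1 to TGFB3, the shares of TGFB2, TGFB3, LTBP2 and LTBP3, the sum with LTBP4, and the promoter motifs were added after the values were seen.

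The 10 genes and the lists were chosen with earlier results of these data known. Of each list, up to 3 rises and 3 falls were named, taken by size from genes that passed with no overlap between groups, with SMAD2, SMAD3, SMAD4 and SMAD7 in any case. Some genes of the lists are counted but not reported here by name. TGIF1, LTBP4 and some markers were named besides. Alternatives varied the pseudocount, the limit on low values, the scaling and the trend, added the replicate number as a term, or left out a library. Promoters of the 10 genes were taken from RefSeq (GRCh38.p14).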

Additional observations from a re-analysis of the deposited data

How the results depend on the processing

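Of the 10 genes, the 7 that passed kept their direction and passed in 15 of the 16 alternatives; in the other, a limit of 5 TPM, TGFB3 was no longer tested and the remaining 6 passed. None of the 10 reached the log2 fold change limit of 1, except 1 gene, TGFB3, with a pseudocount of 0.1. TGFB2, not past the threshold in any setting, changed sign to 0.045 with median-of-ratios scaling and 0.037 with quantile normalization, and ran from -0.107 to 0.031 across the 6 fits that left out a library. Median-of-ratios scaling moved the rise of the summed ligands from 17.2 to 22.87 TPM and the fall of the summed LTBPs from -9.35 to -3.544 TPM, and leaving out mitochondrial transcripts moved the latter to -10.93 TPM. Adding LTBP4, an alternative chosen after seeing the data, moved the fall of the summed LTBPs to -15.53 TPM and the difference in the share of LTBP3 from -11.06 to -7.882 percentage points.

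With the replicate number as a term (replicate block), the same 7 genes passed, but 0 signal transducers and 0 activin branch genes did. Same-numbered libraries did not deviate together (correlations of -0.020, 0.034 and 0.033 over genes), so the numbers were not taken as pairs. The block lowered the calls over all genes from 4955 to 4007.

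Of the activators and anchors, 4 rose and 7 fell, but 7 and 7 with median-of-ratios scaling and 6 and 7 with quantile normalization. The receptor partners that passed were 1, but 2 with median-of-ratios scaling or quantile normalization and 1 to 3 with a library left out. The signal transducers that passed were 2, but 0 with no limit on low values, a limit of 0.1 TPM, quantile normalization or no trend, 1 with a limit of 5 TPM, 1 with median-of-ratios scaling (SMAD2, higher), and 0 to 2 with a library left out. The activin branch had 1, but 0 with no limit on low values, a limit of 0.1 or 5 TPM, median-of-ratios scaling, quantile normalization and every library left out. The cause was not tested. The unknown depth limits what can be said of TGFBR3 and other genes near 1 TPM.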
